A study of Mus musculus with 30 samples.

Results

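The genes described here encode 40 core proteins of the small nuclear ribonucleoproteins (snRNPs), the RNA and protein particles from which the spliceosome is built. They were chosen by name, from the Sm, U1, U2, U4/U6.U5 and minor spliceosome proteins, and not by any measured value. All 40 were found, each as 1 row, among the 48709 genes of the count tables. RNA was sequenced from brain, kidney, liver, quadriceps muscle and spleen of adult C57BL/6 mice. The control mice were wild type (WT), and the other mice were Ctcf+/-, that is, they lacked 1 working copy of Ctcf, which encodes a DNA-binding zinc-finger protein known for its role in the looping of chromatin. Each tissue had 3 WT and 3 Ctcf+/- libraries, 30 in all, and no other allele or treatment is named for either group. The title of the series concerns intron retention. The tables count fragments over exons only, so the values here are gene levels, and intron retention was not analysed.

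The spliceosome removes introns from pre-mRNA and joins the exons. Each snRNP carries a small nuclear RNA, together with proteins particular to that particle. In U1, U2, U4 and U5 the RNA is wrapped by a ring of Sm proteins. The U1 snRNP recognises the 5' splice site, and the U2 snRNP, with its SF3A and SF3B subunits and the U2AF heterodimer, recognises the branch point and the 3' splice site. The U4/U6.U5 tri-snRNP then joins, U4 is unwound from U6, and the catalytic centre forms around the U5 protein Prp8. A separate minor spliceosome, with U11 and U12 in place of U1 and U2, removes a small class of introns. These genes are used in every cell, and their proteins work in fixed complexes.

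By particle, the 40 genes comprised 7 of the Sm ring, 5 of U1, 13 of U2, 5 of U5, 3 of U4/U6, 4 that join with the tri-snRNP or the later B complex (with Prpf19) and 3 of the minor U11/U12 particle. In the RefSeq promoter table (GRCm38.p6), 33 of the 40 had an entry, with 39 start sites. Bases upstream of the start are shown for 4 genes with wide tissue ranges described below, which were chosen after their values were seen. Prpf38b was highest in spleen, Snrnp35 and Snrnp27 in muscle, and Prpf40b in brain. Each runs 5' to 3' on the strand of its gene and stops before the annotated transcript. The windows are chr3:108911730-108911979 (minus strand), chr5:124482905-124483133 (plus strand), chr6:86684523-86684741 (minus strand) and chr15:99294991-99295086 (plus strand). Capitals mark a CCAAT box, a GC box, an ETS site or an E-box on either strand.
Prpf38b: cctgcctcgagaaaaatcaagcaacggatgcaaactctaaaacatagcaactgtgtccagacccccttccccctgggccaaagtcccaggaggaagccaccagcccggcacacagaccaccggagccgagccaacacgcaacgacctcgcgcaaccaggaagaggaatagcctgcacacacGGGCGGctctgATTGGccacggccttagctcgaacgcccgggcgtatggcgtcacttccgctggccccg
Snrnp35: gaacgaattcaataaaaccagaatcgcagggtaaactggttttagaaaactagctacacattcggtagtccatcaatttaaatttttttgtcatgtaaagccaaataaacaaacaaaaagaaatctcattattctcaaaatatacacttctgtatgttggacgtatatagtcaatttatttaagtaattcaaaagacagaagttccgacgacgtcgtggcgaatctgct
Snrnp27: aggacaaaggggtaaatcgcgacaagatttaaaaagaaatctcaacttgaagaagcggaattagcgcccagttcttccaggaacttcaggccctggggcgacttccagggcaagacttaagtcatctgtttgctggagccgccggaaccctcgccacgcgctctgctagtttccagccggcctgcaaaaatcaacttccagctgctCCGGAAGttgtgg
Prpf40b: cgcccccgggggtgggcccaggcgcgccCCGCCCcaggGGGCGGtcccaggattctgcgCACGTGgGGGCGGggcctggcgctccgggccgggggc

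These windows differed in base composition. G and C made up 86.5% of the Prpf40b stretch, which held 3 GC boxes (GGGCGG) and an E-box (CACGTG, a palindrome). They made up 32.8% of the Snrnp35 stretch, in which none of the searched motifs was found. The Prpf38b window held a GC box and a CCAAT box in the reverse direction, and the Snrnp27 window held an ETS site (CCGGAAG). Over the 250 bases before each start, both strands searched, the ETS letters stood in 14 of 39 windows of snRNP genes (35.9%), against 6.91% of the 32851 windows in the table. The NRF1 motif stood in 10 of 39 (25.6%, against 3.74%), the GC box in 21 of 39 (53.8%, against 32.7%) and the CCAAT letters in 17 of 39 (43.6%, against 33.8%). The E-box letters stood in 5 of 39 (12.8%, against 6.02%). The YY1 letters (AAGATGGC) stood in 0 of 39 (against 1.56%). The TATA letters (TATAAA) stood in 3 of 39 (7.69%, against 12.4%). A form of the CTCF core motif was found before 1 gene, Sf3b6, or 2.56% of windows against 1.14%. The snRNP windows were also richer in G and C, with a median of 56.8% against 52.4% over all windows. The part of base composition in the motif shares was not tested. Matches of different motifs can overlap, windows of 1 gene can overlap each other, and a match is not a measured site.

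Every snRNP gene was expressed in every tissue. Levels across tissues are given as FPKM, fragments per kilobase of merged exon and per 1000000 fragments, with the libraries scaled together by TMM, a scaling that assumes most genes do not differ. All 40 genes were above 1 FPKM in all 10 groups, and the lowest count of any of them in a library was 177. The median level over the 40 genes was 17.4 FPKM in WT spleen, 12.6 in muscle, 11.1 in liver, 9.62 in kidney and 9.57 in brain. Total depth was 49.8 M to 131.6 M counts. Markers of each tissue were highest in that tissue: summed kidney markers reached at most 116 CPM (counts per 1000000) in any other tissue against at least 17690 in kidney, and summed B cell markers at most 25.9 CPM outside spleen against at least 2957 in it. In Ctcf+/- libraries Ctcf itself stood at 61.4% to 67.2% of WT, with no overlap between the groups in any tissue. It passed an adjusted p under 0.05 in brain alone (edgeR quasi-likelihood test, adjusted p = 0.0259; 0.107 to 0.914 in the other 4 tissues).

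Spleen had the highest level of 25 of the 40 genes, muscle of 11, liver of 3, brain of 1 and kidney of none. Brain had the lowest level of 17. In bulk tissue, fewer cells of a type and less RNA per cell cannot be told apart. Across the 5 WT tissues all 40 genes differed (edgeR quasi-likelihood F-test over 15 libraries, adjusted p under 0.05), but 98% of all genes tested did so too. The highest tissue mean was a median of 2.90 times the lowest, over 2 times for 34 genes and over 4 times for 14. When each WT tissue was set against the mean of the other 4, 30 of the 40 genes were higher in spleen (38% of all 22933 genes tested) and 4 were lower (37.7%). In muscle 19 were higher (32.2%) and 10 lower (34.7%), in liver 6 and 19 (28.5% and 30.3%), in kidney 0 and 22 (32.9% and 23.8%) and in brain 5 and 23 (39.5% and 33.7%). Their median log2 difference in spleen was 0.70, against -0.21 for all genes. Of 96 other spliceosome genes listed for comparison, the median in spleen was 0.58.

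**Figure D1:**
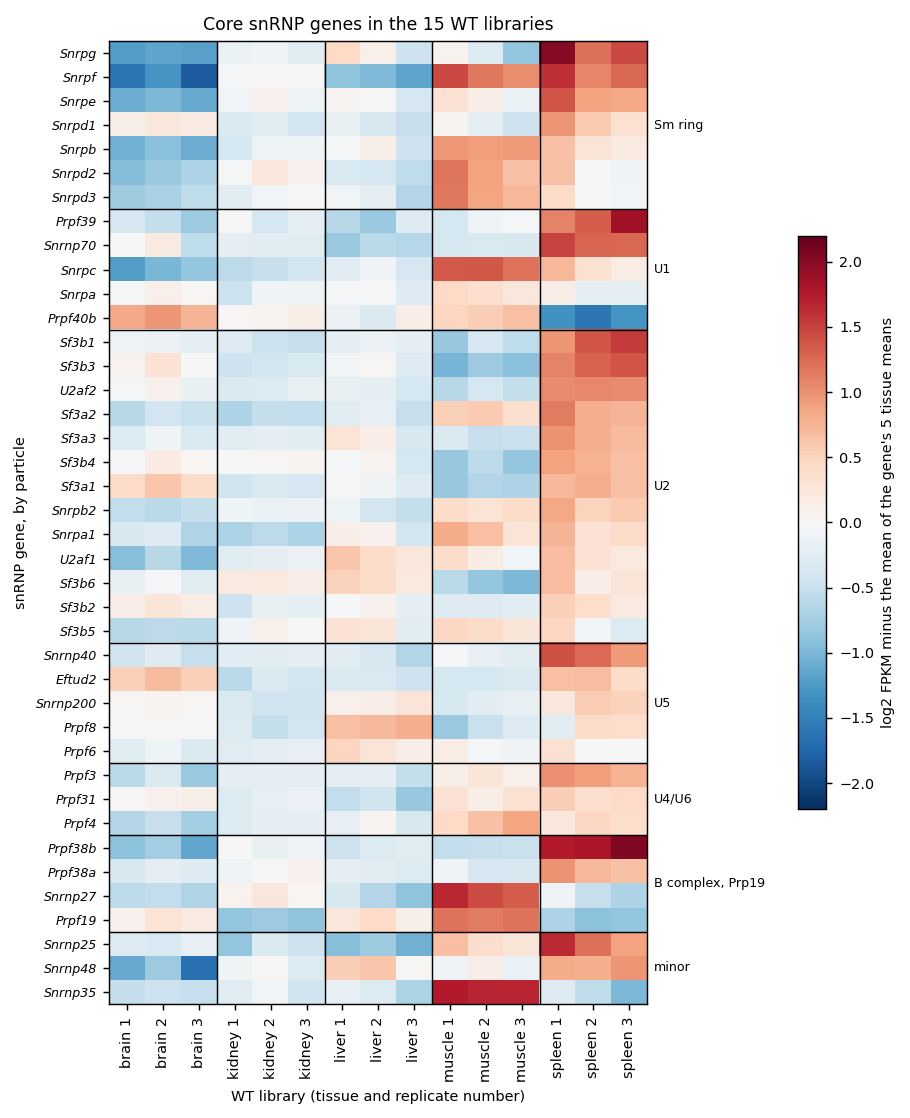
Levels of the 40 snRNP genes (rows, by particle) in the 15 WT libraries (columns), as log2 FPKM minus the mean of that gene's 5 tissue means. Red is above and blue below that mean. The 3 spleen columns are red for most rows, Prpf40b and Prpf19 are blue there, and the Sm ring rows are blue in brain apart from Snrpd1.

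The tissue calls depend on how libraries are put on 1 scale. Scaling by total counts in place of TMM moved the median log2 difference of all genes by 0.67 in spleen, 0.59 in brain, 0.46 in kidney, -0.77 in liver and -0.98 in muscle. The split of higher and lower snRNP genes then went from 5 and 23 to 20 and 9 in brain, from 0 and 22 to 12 and 3 in kidney, from 6 and 19 to 0 and 38 in liver and from 19 and 10 to 8 and 28 in muscle. In spleen it went from 30 and 4 to 36 and 2. With total counts, 75.1% of all genes lay below 0 in liver and 75.8% in muscle, called or not. The shares were 42.4% in spleen, 37.0% in brain and 33.5% in kidney. The same 30 genes were higher in spleen under TMM, DESeq2 size factors and total counts (37.9% of all genes were). In brain 5 genes were higher under all 3 scalings (39.5% of all genes) and 9 lower (21.5%). In muscle 8 were higher (17.1%) and 10 lower (34.7%), in liver 19 were lower (30.2%) and in kidney 3 were lower (11.3%), while none was higher in liver (16.6%) or kidney (31%). The calls in the paragraphs below held under all 3 scalings, unless another is named. FPKM values and the order of tissues by level are on the TMM scale only.

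Calls between tissues were also made, with TMM, in the Ctcf+/- libraries, which come from other mice. There, 39 of the 40 genes differed between tissues, the exception being Snrpa (edgeR F-test adjusted p = 0.451), and 30 genes were higher in spleen (38.9% of all genes), of which 29 were among the 30 of WT (96.7% of either list), and the 4 lower genes were the same 4 (35.6% of all genes were lower). No gene called in a WT tissue was called in the opposite direction in the Ctcf+/- libraries of that tissue. Several lists were shorter than in WT, and some were longer. In kidney 16 of the 22 lower genes in WT (72.7%) and in muscle 14 of the 19 higher genes (73.7%) were also called in Ctcf+/- mice. Of the 96 other spliceosome genes, 58.3% were lower in Ctcf+/- kidney and 46.9% higher in Ctcf+/- muscle. In WT, 23.8% of all genes were lower in kidney and 32.2% higher in muscle. The shares of all genes in Ctcf+/- kidney and muscle are not given here. Lower genes in muscle rose from 10 in WT (34.7% of all genes) to 14 in Ctcf+/- mice, where 27.1% of the other spliceosome genes were lower. The smallest shared part was in liver, where 11 of the 19 lower genes in WT (57.9%) were also lower in Ctcf+/- mice, and no others were (30.1% of all genes).

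**Figure D2:**
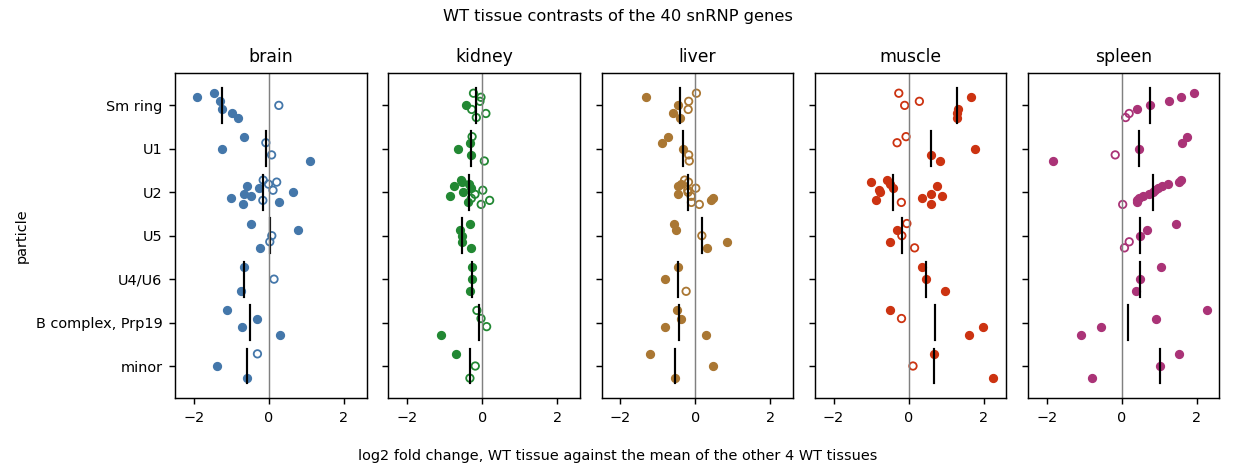
Log2 fold change of each snRNP gene (point) in a WT tissue against the mean of the other 4 WT tissues, TMM scaling, by particle. Filled points passed an adjusted p under 0.05, open points did not, and the black bar is the particle's median. In spleen the U2 points lie at or above 0, while in muscle the U2 points fall on both sides.

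The Sm proteins form the ring shared by U1, U2, U4 and U5. In brain 5 of the 7 (Snrpb, Snrpd2, Snrpe, Snrpf and Snrpg) were lower than in the other tissues (21.5% of all genes were). In spleen 5 (Snrpb, Snrpd1, Snrpe, Snrpf and Snrpg) were higher (37.9% of all genes). In muscle 4 (Snrpb, Snrpd2, Snrpd3 and Snrpf) were higher (17.1% of all genes). The 7 ring proteins are present once each in a ring, yet their FPKM levels did not keep 1 ratio. Ratios between genes depend on the merged exon lengths and on the fragments left out for matching several genes or places. They are therefore not ratios of transcript numbers, and the size of this effect was not tested. In muscle Snrpb stood at 96.3 FPKM and Snrpg at 11.7, a ratio of 8.20, and in spleen the highest (Snrpb, 65.7) was 2.73 times the lowest (Snrpd3, 24.1). In brain the highest member was Snrpd1, at 32.7 FPKM.

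Snrpf (chromosome 10, 93583029 to 93589706, GRCm38) had the widest range. Its 3 WT libraries had 3.99, 4.69 and 5.77 FPKM in brain, 6.34, 7.25 and 7.68 in liver, 13.99, 14.2 and 14.4 in kidney, 28.7, 31.7 and 38.93 in muscle and 29.7, 33.8 and 43.1 in spleen. Muscle and spleen overlapped and were above the other 9 libraries. The log2 difference in spleen was 1.59 (SE 0.12, adjusted p = 1.35e-08) and in brain -1.91 (SE 0.15, adjusted p = 2.73e-08). Of its exon bases, 85.4% also lie in Ccdc38 or 4933408J17Rik. Fragments that overlap several genes were not counted, so the level of Snrpf per length is uncertain and too low by an amount that can vary with the transcript form. Snrpg, which shares no exon base with another gene, ranged from 6.27, 6.40 and 6.52 FPKM in brain to 33.8, 40.1 and 58.7 in spleen, where its log2 difference was 1.93 (SE 0.17, adjusted p = 9.79e-08). Its liver (10.6, 15.7 and 19.7), kidney (12.3, 13.2 and 13.8) and muscle (8.01, 11.8 and 15.4) libraries overlapped. Snrpg was chosen after its values were seen.

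The low brain level of Snrpb stood beside a high level of Snrpn, a paralogue that encodes SmN, known from neurons and able to take the place of SmB in the ring. Snrpn is not one of the 40 and was picked once its values were known. Its level was 169 ± 5.17 FPKM (SD, n = 3) in WT brain, 26.0 ± 1.57 in muscle, 4.21 ± 0.754 in liver, 3.82 ± 0.38 in kidney and 0.115 ± 0.0444 in spleen. The ratio of Snrpn to Snrpb was 6.61, 6.86 and 7.19 in the 3 WT brain libraries and 0.256, 0.270 and 0.283 in muscle. In the other 9 WT libraries it was at most 0.139. Ctcf+/- brain libraries had ratios of 6.34, 6.79 and 6.96, which overlapped those of WT brain.

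Among the U1 proteins, which find the 5' splice site, the tissue of highest level differed. Snrnp70 (U1-70K, which binds a stem loop of U1 RNA) and Prpf39 (a U1-associated protein) were highest in spleen, with log2 differences of 1.61 (SE 0.12, adjusted p = 8.19e-09) and 1.75 (SE 0.15, adjusted p = 4.24e-08). Snrpc (the U1 C protein, which steadies the pairing of U1 with the splice site) was highest in muscle, at 12.2, 13.6 and 13.8 FPKM. It had 5.98, 6.71 and 8.89 in spleen, 4.15, 4.55 and 5.07 in liver, 3.58, 3.77 and 4.03 in kidney and 2.27, 2.65 and 2.96 in brain. No 2 neighbouring tissues overlapped in that order, and the log2 difference in muscle was 1.76 (SE 0.11, adjusted p = 1.45e-09). Snrpc was higher in spleen too, by 0.47 (SE 0.11, edgeR adjusted p = 0.00175). Snrpa (the U1 A protein, which binds another stem loop of U1 RNA) was among the 3 genes with the smallest range. Its WT libraries had 11.7, 12.3 and 13.1 FPKM in brain, 8.73, 11.3 and 11.5 in kidney, 9.96, 11.9 and 12.3 in liver, 14.5, 15.8 and 16.5 in muscle and 10.5, 10.5 and 13.4 in spleen, so that muscle alone stood above the other 12 libraries on this scale. With total counts the direction in muscle turned, from a log2 difference of 0.58 to -0.40.

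Prpf40b, a U1-associated protein related to yeast Prp40 (chromosome 15, 99295087 to 99317018), ran against most of the others. It had 7.70, 8.19 and 8.995 FPKM in WT brain, 6.36, 6.69 and 7.29 in muscle, 4.66, 4.75 and 5.06 in kidney, 3.68, 4.20 and 5.04 in liver and 1.53, 1.81 and 1.84 in spleen. Brain lay above and spleen below all other libraries, and kidney and liver overlapped. The log2 difference was 1.10 in brain (SE 0.10, adjusted p = 1.54e-07) and -1.83 in spleen (SE 0.13, adjusted p = 4.54e-09).

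Of the 13 U2 proteins 12 were higher in spleen (37.9% of all genes were), with a median log2 difference of 0.83 over the 13. With TMM Sf3b5 (0.02, SE 0.14) did not pass the test, but with total counts it did (0.69, SE 0.10, edgeR adjusted p = 1.83e-05). In muscle 7 of the 13 (Sf3a1, Sf3a3, Sf3b1, Sf3b3, Sf3b4, Sf3b6 and U2af2) were lower (34.7% of all genes were). Sf3b1, the large subunit that clamps the branch helix, had 42.0 FPKM in WT spleen and 11.3 in muscle, and its log2 difference in spleen was 1.57 (SE 0.11, adjusted p = 8.27e-09). Sf3b3, the scaffold of SF3B, had the widest range of the group, with 12.3, 14.2 and 15.05 FPKM in spleen, 5.76, 6.07 and 7.15 in brain, 4.72, 5.54 and 5.84 in liver, 4.21, 4.36 and 4.54 in kidney and 2.82, 3.03 and 3.32 in muscle. Every spleen library was above and every muscle library below the rest. Its spleen difference was 1.51 (SE 0.09, adjusted p = 8.69e-10) and its muscle difference -1.004 (SE 0.11, adjusted p = 7.66e-07). U2af2, which binds the polypyrimidine tract, was higher in spleen by 1.24 (SE 0.08, adjusted p = 3.25e-09). U2af1, its partner at the 3' splice site, was highest in liver at 73.0 FPKM beside 72.2 in spleen, with overlapping libraries. Its log2 difference in liver turned from 0.48 with TMM to -0.29 with total counts. U2af1 was lower in brain (-1.002, SE 0.13, adjusted p = 6.21e-06). Sf3a1 (0.64, SE 0.08) and Sf3b2 (0.27, SE 0.10) were higher in brain. Sf3b2 was among the genes of smallest range, with 61.4, 61.8 and 66.5 FPKM in brain, 40.4, 47.4 and 49.6 in kidney, 48.0, 54.4 and 59.2 in liver, 45.5, 45.5 and 47.1 in muscle and 63.4, 72.6 and 79.6 in spleen. Snrpb2 (U2B'') is the U2 relative of Snrpa, and the ratio of Snrpa to Snrpb2 was 1.95 ± 0.157 in WT brain and 0.783 ± 0.0229 in WT spleen, with no overlap between these libraries.

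The U5 proteins form the core in which the exons are joined. Prpf8, the scaffold of the catalytic centre, had 38.87 FPKM in liver, 27.5 in spleen, 23.5 in brain, 17.8 in kidney and 16.6 in muscle. Its higher level in liver (log2 0.84, SE 0.13, adjusted p = 6.63e-05) was not a call under total counts. Snrnp200, the helicase that unwinds U4 from U6, was higher in spleen by 0.48 (SE 0.09, adjusted p = 0.000185). Eftud2, the GTPase of U5, was higher in brain (0.76, SE 0.08, adjusted p = 9.04e-07) and spleen (0.67, SE 0.08, adjusted p = 3.94e-06). Of its exon bases 26.9% are shared with Gm26668. Snrnp40, a WD40 protein of U5, had 9.70, 12.01 and 13.5 FPKM in spleen, 4.34, 4.50 and 4.96 in muscle, 4.26, 4.33 and 4.36 in kidney, 3.24, 3.97 and 4.27 in liver and 3.58, 3.74 and 4.17 in brain. Spleen stood apart (log2 1.43, SE 0.10, adjusted p = 3.34e-09) while muscle and kidney overlapped, as did brain and liver. Prpf6, which bridges U5 and U4/U6, had the smallest range of all 40 genes. Its WT libraries had 13.2, 13.6 and 15.4 FPKM in brain, 13.7, 14.4 and 14.5 in kidney, 18.2, 20.01 and 22.7 in liver, 15.7, 16.02 and 18.3 in muscle and 16.2, 16.4 and 20.6 in spleen.

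The 3 proteins of U4/U6 (Prpf3, Prpf4 and Prpf31) were all higher in spleen (37.9% of all genes were), by 0.38 to 1.05 on the log2 scale. Prpf3 had 6.50, 7.29 and 7.75 FPKM there, 4.15, 4.22 and 4.63 in muscle, 3.31, 3.36 and 3.36 in kidney, 2.66, 3.30 and 3.31 in liver and 2.18, 2.56 and 3.09 in brain. On this scale the spleen libraries and then the muscle libraries were above all the rest. The muscle difference of Prpf3 turned from 0.35 to -0.63 (log2) with total counts.

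The 4 genes that join at the tri-snRNP or later split between spleen and muscle. Prpf38b (chromosome 3, 108902805 to 108911727), a relative of the B complex protein Prp38, had 30.7, 32.0 and 37.4 FPKM in spleen, 8.23, 8.65 and 9.07 in kidney, 6.66, 7.44 and 7.60 in liver, 6.29, 6.46 and 6.51 in muscle and 4.17, 4.93 and 5.39 in brain. No tissue overlapped its neighbour in that order. The log2 difference in spleen, 2.26 (SE 0.09, adjusted p = 6.16e-12), was the largest of the 40 in any tissue with TMM. Snrnp35 in muscle was close to it, at 2.25 (SE 0.12). With DESeq2 size factors Prpf38b had 2.247 and Snrnp35 2.2475, and with total counts 2.95 and 1.28. Prpf38a was higher in spleen by 0.91 (SE 0.09, adjusted p = 2.74e-07). Snrnp27, a tri-snRNP protein (chromosome 6, 86675151 to 86684522), had 51.3, 55.1 and 64.0 FPKM in muscle, 20.9, 21.4 and 24.1 in kidney, 12.8, 14.3 and 19.2 in spleen, 12.8, 13.6 and 13.9 in brain and 10.95, 13.1 and 15.9 in liver. Its muscle difference was 1.99 (SE 0.11, adjusted p = 7.68e-10). Prpf19, a ubiquitin ligase and the scaffold of the complex that activates the spliceosome, was higher in muscle by 1.61 (SE 0.08, adjusted p = 2.13e-10) and in brain by 0.28 (SE 0.09, adjusted p = 0.0099). It was lower in kidney (-1.09, SE 0.10, adjusted p = 1.81e-07) and spleen (-1.08, SE 0.10, adjusted p = 9.02e-08).

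The minor spliceosome genes also parted. Snrnp35 (chromosome 5, 124483134 to 124491124), the U11/U12 counterpart of U1-70K, had 25.8, 25.8 and 27.3 FPKM in muscle. It had 5.98, 6.90 and 7.83 in kidney, 4.99, 6.63 and 7.15 in liver, 5.68, 5.70 and 5.84 in brain and 4.11, 5.49 and 6.68 in spleen, and these 12 libraries overlapped between neighbouring tissues. The muscle difference was 2.25 (SE 0.12, adjusted p = 3.84e-10). Snrnp25 and Snrnp48, other proteins of the same particle, were instead highest in spleen, by 1.53 (SE 0.14, adjusted p = 9.25e-08) and 1.01 (SE 0.14, adjusted p = 1.45e-05). The ratio of Snrnp35 to Snrnp48 was 3.12 ± 0.364 in WT muscle and 0.351 ± 0.0999 in WT spleen.

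**Figure D3:**
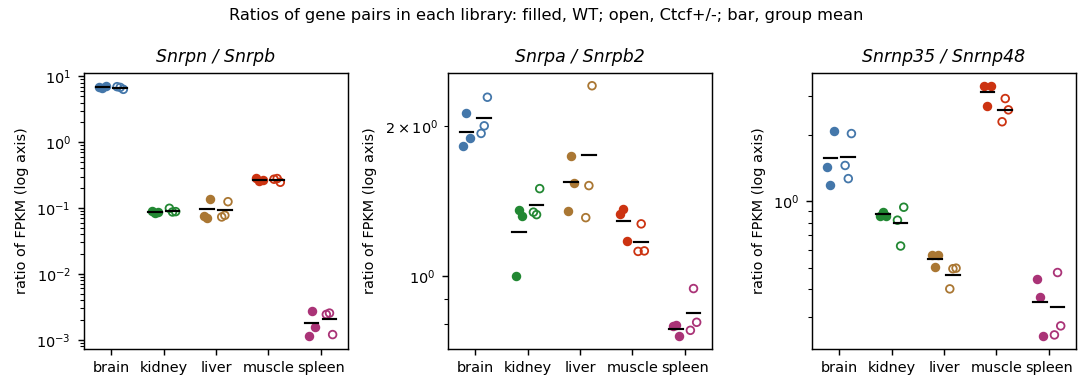
Ratio of FPKM for 3 pairs of genes in each library, on a log axis: Snrpn over Snrpb, Snrpa over Snrpb2 and Snrnp35 over Snrnp48. Filled points are WT, open points Ctcf+/- and bars group means. The first 2 ratios are highest in brain and lowest in spleen, and the last is highest in muscle and lowest in spleen.

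**Figure D4:**
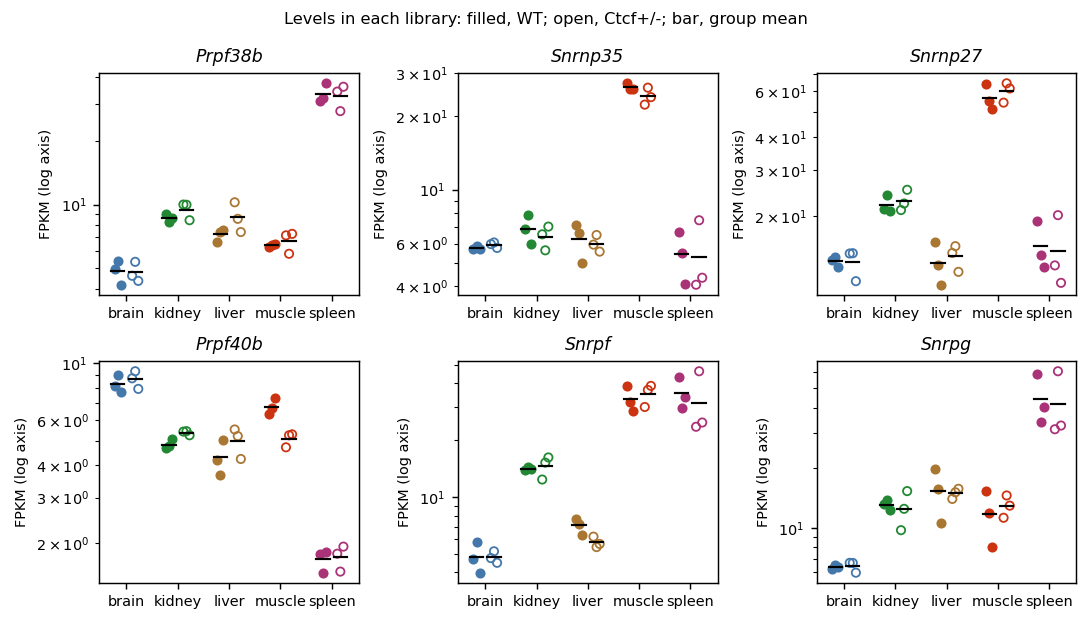
FPKM in every library (log axis) for Prpf38b, Snrnp35, Snrnp27, Prpf40b, Snrpf and Snrpg. Filled points are WT, open points Ctcf+/- and bars group means. Prpf38b and Snrpg are highest in spleen, Snrnp35 and Snrnp27 in muscle and Prpf40b in brain, in both genotypes.

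Markers of dividing cells were far higher in spleen than elsewhere. Their summed level was 684 to 2082 CPM in WT spleen and at most 138 CPM in any library of the other tissues, and all 12 markers were called higher in spleen. Summed erythroid markers in WT spleen ran from 9672 to 56664 CPM. Within spleen, the Sm ring sum was 605, 427 and 420 CPM in WT libraries 1 to 3 and 353, 659 and 345 CPM in Ctcf+/- libraries 1 to 3. The summed erythroid markers in the same order were 56664, 37678, 9672, 13213, 48776 and 22540 CPM. The libraries with the highest erythroid sum in each genotype, WT library 1 and Ctcf+/- library 2, were also those with the highest Sm sum. This order was not kept throughout, as Ctcf+/- library 3 had a higher erythroid sum than library 1 but a lower Sm sum. In the same order, summed markers of dividing cells were 1758, 2082, 684, 720, 1616 and 1413 CPM, highest in WT library 2. Summed B cell markers were 3798, 3197, 4177, 2957, 3650 and 3336 CPM. The U2 sum moved little, from 1481 to 1562 CPM. Whether the dividing or erythroid share of spleen plays a part in the snRNP levels was not tested.

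The effect of 1 lost copy of Ctcf was compared with WT in each tissue. No snRNP gene was called in any of the 5 tissues at an adjusted p under 0.05 (edgeR quasi-likelihood test, 3 against 3 libraries), where 0.242% of all genes were called in spleen, 0.0249% in muscle, 0.0193% in liver, 0.0211% in kidney and 0.0157% in brain. DESeq2 and limma-voom also called none. At an unadjusted p under 0.05, 1 of the 200 tests (40 genes in 5 tissues) passed, Prpf40b in muscle, while 6.45% of all genes passed in muscle, 6.44% in kidney, 4.56% in liver, 3.52% in spleen and 2.96% in brain. The median log2 fold change of the 40 genes was -0.03 in spleen and muscle, 0.00 in liver, -0.01 in kidney and -0.02 in brain. The medians of all genes were between -0.01 and 0.00. Of the 96 other spliceosome genes, 94 to 96 were tested in a tissue and none was called. Luc7l3 in liver (log2 0.47, SE 0.14, edgeR adjusted p = 0.797) and Sugp1 in muscle (-0.25, SE 0.10, edgeR adjusted p = 0.707) passed before adjustment.

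The precision differed by tissue. The 95% interval of the fold change stayed within 1.5-fold in either direction for 18 of 40 genes in spleen, 36 in liver, 38 in muscle, 39 in kidney and 39 in brain. It stayed within 2-fold for all 40 genes in each tissue. The median SE of the log2 fold change was 0.08 in brain and 0.24 in spleen. In spleen all 7 Sm genes were among the 22 whose interval passed 1.5-fold.

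**Figure D5:**
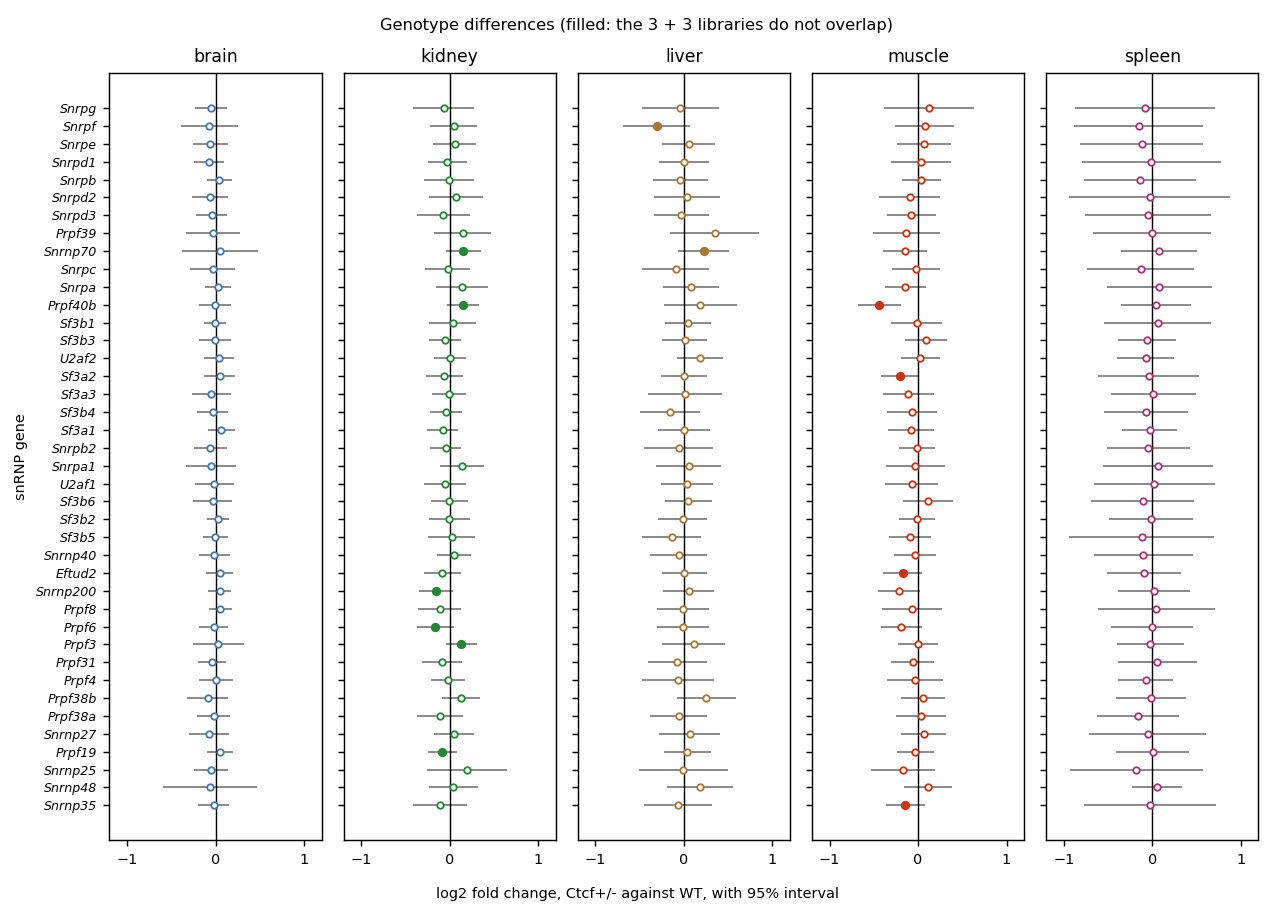
Log2 fold change, Ctcf+/- against WT, of each snRNP gene with its 95% interval, in the 5 tissues. Filled points are genes whose 3 WT and 3 Ctcf+/- libraries do not overlap. All intervals but that of Prpf40b in muscle include 0, and those in spleen are the widest.

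In muscle Prpf40b had 19.4, 20.8 and 22.8 CPM in WT and 14.3, 15.98 and 16.2 CPM in Ctcf+/- libraries. The groups did not overlap, and the log2 fold change was -0.44 (SE 0.11, 95% interval -0.68 to -0.19, edgeR adjusted p = 0.386). Over the alternatives its adjusted p was 0.112 to 0.818. In kidney the same gene went the other way without overlap, from 29.3, 30.1 and 31.9 CPM in WT to 32.7, 33.8 and 34.8 in Ctcf+/- (log2 0.15, SE 0.08, edgeR adjusted p = 0.864). It had the smallest p of the 40 in the test of whether the genotype effect differed between tissues (edgeR adjusted p = 0.405), where no snRNP gene and 0.758% of all genes were called. Neither did any of the 40 pass the test of an effect shared by the 5 tissues (0.194% of all genes did). The smallest p there were 0.165 for Prpf38b (log2 0.08, SE 0.06), 0.200 for Snrnp70 (0.09, SE 0.07) and 0.236 for U2af2 (0.05, SE 0.04), none of which passed adjustment in edgeR. After Prpf40b, the smallest p of the interaction test were 0.255 for Snrnp200 and 0.378 for U2af2. The liver libraries of U2af2 had 57.8, 58.5 and 61.3 CPM in WT and 60.5, 69.2 and 71.7 in Ctcf+/-, and its groups overlapped in each tissue.

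Groups without overlap were found for 6 of 40 genes in kidney (15%, against 11.4% of all genes), 2 in liver (8.99%), 4 in muscle (12.2%) and none in brain (7.83%) or spleen (6.64%), so 12 of 200 gene and tissue pairs in all. No gene did so in the same direction in 3 tissues. In kidney Prpf3, Prpf40b and Snrnp70 were higher (3 genes, against 6.15% of all genes) and Prpf19, Prpf6 and Snrnp200 lower (5.28%) in Ctcf+/- libraries. Snrnp70 had 184, 192 and 195 CPM in WT and 196, 219 and 220 in Ctcf+/- kidney, and Snrnp200 had 91.3, 92.3 and 98.1 against 79.5, 83.1 and 90.7. In liver 1 gene was higher (4.68% of all genes) and 1 lower (4.31%). Snrnp70 had 62.2, 72.0 and 78.3 CPM in WT and 80.4, 82.7 and 84.7 in Ctcf+/-, and Snrpf had 3.75, 3.88 and 4.13 against 2.99, 3.15 and 3.35. In muscle Eftud2, Prpf40b, Sf3a2 and Snrnp35 were lower (6.28% of all genes) and none was higher (5.91%). Sf3a2, of which 16.1% of exon bases are shared with Plekhj1, had 28.9, 31.6 and 33.4 CPM in WT and 26.4, 26.7 and 28.3 in Ctcf+/- muscle. In kidney and muscle, 5 of 12 markers of dividing cells were higher without overlap in the Ctcf+/- libraries (6.15% and 5.91% of all genes were), with sums of 68.8 to 73.8 CPM in WT and 73.4 to 105 CPM in Ctcf+/- kidney. Kidney markers summed to 16.1 to 116 CPM in WT muscle and 0.256 to 9.75 CPM in Ctcf+/- muscle. In spleen, hepatocyte markers summed to 27.2 to 34.3 CPM in WT and 0.133 to 0.383 CPM in Ctcf+/- libraries, and kidney markers to 0.973 to 1.73 against 9.48 to 17.99 CPM. Among the genes called for genotype in spleen were 9 of the 10 hepatocyte markers and 4 kidney markers. In kidney, neuron and glia markers summed to 88.0 to 108 CPM in WT and 58.2 to 72.3 CPM in Ctcf+/-. The part of these markers in the snRNP values was not tested.

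The other genes with the smallest p in a tissue had overlapping groups. In brain these were Prpf8 (243, 249 and 252 CPM in WT, 251, 255 and 269 in Ctcf+/-), Snrpd1 (37.4, 39.4 and 39.6 against 33.9, 37.6 and 39.1) and Sf3a1 (85.5, 85.6 and 96.8 against 92.1, 93.5 and 94.7), with p of 0.342 to 0.360. In liver Prpf38b had 28.9, 32.1 and 36.3 CPM in WT and 33.3, 37.9 and 44.8 in Ctcf+/-. In muscle Snrnp200 had 47.0, 51.9 and 54.9 CPM against 40.1, 45.1 and 47.8. In spleen the 3 were Prpf38a (43.6, 47.7 and 58.6 against 38.97, 40.2 and 54.7 CPM), Snrnp25 (29.9, 39.05 and 53.4 against 27.2, 29.4 and 51.3 CPM) and Prpf4 (38.2, 40.2 and 44.0 against 36.4, 38.95 and 40.9 CPM).

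Summed by particle, snRNP genes took about the same share of counts in both genotypes. The ratio of Ctcf+/- to WT sums of all 40 genes was 0.994 in spleen, 0.966 in muscle, 1.02 in liver, 0.999 in kidney and 1.01 in brain, with overlapping groups. For single particles the groups were apart in 3 of 35 cases. Among single genes, 6.64% (spleen) to 12.2% (muscle) of all genes tested had groups apart, and 11.4% in kidney and 8.99% in liver. The U1 sum was 319 to 321 CPM in WT and 339 to 358 CPM in Ctcf+/- kidney, and 126 to 148 against 152 to 154 CPM in liver. The U5 sum was 396 to 414 CPM in WT and 354 to 388 CPM in Ctcf+/- kidney. Snrnp70 is the most abundant member of the U1 sum in kidney, so these sums are not independent of its values above. No test was made of the sums.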

How the data were processed

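The authors' deposited values were raw fragment counts per gene, 1 table per tissue. Per the file headers they were made with featureCounts 1.5.0-p3 over exons of Ensembl release 86 (GRCm38), without strand, and fragments in several genes or places were left out. STAR, FastQC and DESeq2 are named in the submitters' processing notes. Exon lengths in bases are those of the deposited tables.

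Samples were grouped by title. The labels do not say which libraries of different tissues came from the same mouse, so p-values of fits over tissues measure the spread between libraries. No pair of replicates differed by as little as sampling noise. Counts were analysed in R 4.3.3 with edgeR 4.0.16: filterByExpr, TMM, quasi-likelihood F-test, Benjamini-Hochberg adjustment over all genes tested, calls at an adjusted p under 0.05. Genotype was fitted in the 6 libraries of a tissue (CPM scaled within the tissue), tissues in the 15 WT libraries, and shared or differing effects in all 30. Intervals use the same fit. Single values with 3 against 3 libraries cannot reach an exact permutation p below 0.1. Alternatives used DESeq2 1.42.0, limma-voom (limma 3.58.1), other scalings, filters of 1 count in 2 libraries or 10 counts in every library, glmTreat at 1.5-fold, a replicate block, and left-out libraries or tissues. Replicate numbers are shared by the genotypes. Deviations of same-numbered libraries correlated above 0.1 for every pair in brain (0.207 to 0.537) and kidney (0.190 to 0.212). In liver (0.0512 to 0.277), muscle (0.0829 to 0.271) and spleen (-0.472 to 0.475) some pairs did and others did not.

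The genes, lists and tests were chosen with earlier results of these data known. Asking for a call under all 3 scalings was added after the values were seen. Values in every library are given for the 3 genes with the smallest genotype p in a tissue, in that tissue, and for the gene of widest tissue range in each particle and the 3 of smallest range. The 3 genes with the smallest p in the shared and interaction tests are named with that p.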

Additional observations from a re-analysis of the deposited data

Results flagged for a closer look

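Prpf40b was lower in every Ctcf+/- muscle library and higher in every Ctcf+/- kidney library than in any WT library of the same tissue. The log2 fold change in muscle was lower than that in kidney by a difference of -0.587 (muscle minus kidney). The difference between these 2 tissues was not tested on its own, since they were picked for it, and over all 5 tissues the interaction did not pass (edgeR adjusted p = 0.405). Over the alternatives its adjusted p in that test ran from 0.0599 (DESeq2) to 1 (without the muscle libraries), with 0.925 under total counts and 0.831 without muscle Ctcf+/- replicate 1.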

How the results depend on the processing

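No snRNP gene was called for genotype, in any tissue, shared or differing between tissues, under any alternative run: the lowest adjusted p was 0.112 (DESeq2, muscle) in a single tissue and 0.0599 (DESeq2) for the interaction. Leaving out 1 library gave 0 calls throughout, and the replicate block changed none of these calls (0 of 40 genes in each tissue, shared and interaction). The sign of a genotype fold change was followed only for the 3 genes with the smallest p in each tissue and in the shared test. Among these the one change of sign was Snrnp25 in spleen. Its log2 fold change ran from -0.532 (without Ctcf+/- replicate 2) to 0.0595 (without WT replicate 1). Tissue differences of single genes did turn with total counts, as given above for Snrpa, U2af1 and Prpf3. All 40 genes differed between tissues under every alternative run on WT libraries, and 39 in the Ctcf+/- libraries. Counts of tissue calls moved more than 1.5 times in these cases. Total counts gave 20 higher and 9 lower in brain, 12 and 3 in kidney, 0 and 38 in liver, 8 and 28 in muscle, and 2 lower in spleen. A minimum of 1.5-fold left 2 and 11 in brain, 3 lower in kidney, 1 and 5 in liver, 12 and 4 in muscle and 19 higher in spleen. The shares of all genes called under these alternatives are not given here, so the counts show only how far the calls moved. Brain had 8 higher with DESeq2 size factors and 9 with the stricter filter or DESeq2. Kidney had 1 higher and 11 lower with the looser filter, and 1 higher in Ctcf+/- libraries. Liver had 11 lower in Ctcf+/- libraries. Without 1 library the counts were 3 to 6 higher and 20 to 24 lower in brain, 0 to 1 and 11 to 24 in kidney, 4 to 6 and 18 to 21 in liver, 17 to 20 and 9 to 14 in muscle, and 28 to 30 and 4 to 5 in spleen. The kidney count fell to 12, 11 or 14 lower without kidney WT replicate 1, 2 or 3, the brain count to 3 higher without brain WT replicate 2, and 1 gene was higher in kidney without spleen WT replicate 1. The cause was not tested. With 3 libraries a group, the 95% interval of a genotype log2 fold change had a median half-width of 0.18 in brain and 0.56 in spleen.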
